A study of Drosophila melanogaster with 9 samples.

Results

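Fat body and heart of the fly send nutrient information to other organs through secreted proteins, and 9 genes for such proteins were followed in dissected hearts: fit, CCHa2, Nplp2, daw, upd2, upd3, egr, Gbp1 and Gbp2. They were taken by symbol from a table with 16700 rows, 13915 of them above 0 somewhere. All 9 were found, and 8 of them were among the 8365 genes tested, because upd2 lay below the expression limit of a mean of 0.5 RPKM.

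RNA was sequenced from pooled hearts of mated adult w1118 females. The 3 libraries of each diet are named A, B and C, and no group carried a transgene or another allele. Normal diet (ND) is a yeast and cornmeal food that was given for 10 days. High sugar diet (HSD), which is ND with 30% sucrose added, was also given for 10 days. High fat diet (HFD), which is ND with 30% coconut oil added, was fed for 3 days, following 7 days of ND. By the labels each library pooled 15 hearts, while the study's methods give a larger number, and the series' design text gives 10 days for all diets. HSD and HFD hearts therefore differ in the length of the rich feeding as well as in its kind, and these cannot be told apart. By the study's methods the samples of each diet were independent and taken on separate days, with a tube of females per diet and date. Which library letter belongs to which day is not given in the sources used here.

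Flies read their nutritional state in the fat body, an organ that serves as liver and adipose tissue, and relay it by peptides that act on the brain, the insulin-producing cells, the gut and muscle. The ligands here use separate receptors: CCHa2 acts on a G protein-coupled receptor, daw on the Activin receptors, upd2 and upd3 on the JAK/STAT receptor dome, egr on TNF receptors, and Gbp1 and Gbp2 on mthl10. A heart dissected from the abdomen carries attached fat body cells, pericardial nephrocytes and hemocytes, so the RNA of a secreted signal here need not come from heart muscle. In such pooled tissue, fewer cells of a type and less RNA per cell cannot be told apart.

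The deposited expression values are RPKM, which relate the reads of a gene to its length and to the library's total, and were here rescaled between libraries by the median of their ratios. Total reads counted on genes were 75653834 to 79296601 per library on ND, 69543213 to 90069216 on HSD and 59941761 to 71825893 on HFD. Across genes, Pearson's r between libraries of the same diet was 0.980 to 0.994. The heart muscle genes Hand, tin, mid, H15, Mhc, Act57B, Mlc1 and Tm1 were all expressed, with a summed level of 1199 to 2056 RPKM per library, and of these 8 limma called 0 in any comparison, with 0 at an unadjusted p under 0.05. Genes were compared on the log2 scale after adding 0.5 RPKM, and a gene was called at an adjusted p under 0.05 (limma, Benjamini-Hochberg) and a fold change of at least 1.5.

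Between HSD and ND, 2 of the 8 genes tested were called, fit and CCHa2, both lower on HSD. In this comparison 3.3% of all genes tested were called and 2.56% were called lower. Between HFD and ND the genes called were again fit and CCHa2, both lower, where 1.91% of all genes were called and 1.45% were called lower. These comparisons share their ND libraries. Between HSD and HFD, Nplp2 alone of the 8 was called, higher on HSD, where 4.35% of all genes were called and 1.75% were called higher on HSD. The median log2 fold change (log2FC) of the 8 genes was -0.23 on HSD and -0.18 on HFD, against 0.00 and 0.02 over all genes tested.

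**Figure D1:**
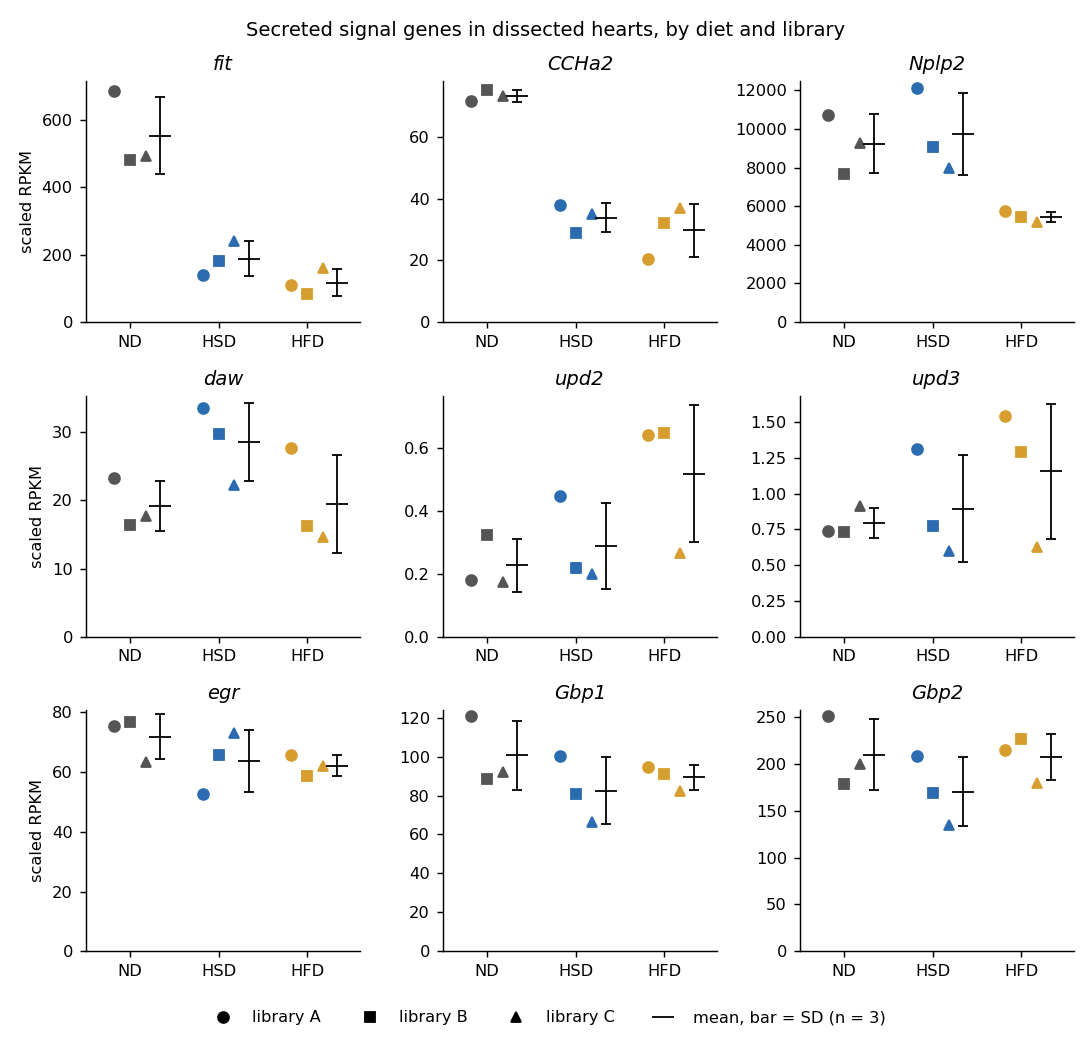
Scaled RPKM (y axis, linear, starting at 0) of each of the 9 genes in the 3 libraries of ND, HSD and HFD (x axis), with the mean and SD (n = 3) beside the points. The fit and CCHa2 points on both rich diets lie below all ND points, and the HFD points of Nplp2 lie below the points of both other diets.

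The gene fit encodes a small secreted protein of the female fat body that acts as a satiety signal after protein feeding. It (FBgn0038914) lies on the minus strand of chromosome 3R of BDGP6 from 21883924 to 21884454, as 1 exon of 531 bases that encodes 121 residues. On ND it was expressed at 685, 481 and 494 RPKM in libraries A, B and C. On HSD the values were 139, 181 and 242 RPKM, and on HFD they were 109.8, 82.6 and 160 RPKM. Every HSD and HFD library was thus below every ND library, and the values of the rich diets overlapped each other. The highest HSD value, in library C, was still below the lowest ND value, in library B.

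On average fit stood at 553 ± 114 RPKM on ND, against 188 ± 51.8 on HSD and 117 ± 39.0 on HFD (mean ± SD, n = 3). HSD libraries were below ND by a log2FC of -1.58 (standard error 0.27; limma, Benjamini-Hochberg adjusted p = 0.0143), a 2.98-fold lower level. On HFD it was -2.27 (standard error 0.27, limma, Benjamini-Hochberg adjusted p = 0.00495), a 4.81-fold lower level. The exact permutation test (two-sided) gave p = 0.1 for each diet, the smallest p that 3 libraries against 3 allow. Of all genes tested, 29.2% had HSD and ND libraries that did not overlap, and 23.3% had such HFD and ND libraries. Set against HFD, HSD was higher in fit by a log2FC of 0.69 (95% interval 0.08 to 1.30), not a call (limma, Benjamini-Hochberg adjusted p = 0.152). The rebuilt reads numbered 19592 to 26440 per ND library, 6524 to 9129 on HSD and 2808 to 6604 on HFD, so counting error is small beside the spread between libraries.

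The call of fit on HFD was kept in each fit that left out 1 library, with a log2FC between -2.51 and -2.04. On HSD it was lost without ND library A (log2FC -1.41), without ND library C (-1.65) and without HSD library B (-1.57), with adjusted p from 0.0526 to 0.0658 (limma, Benjamini-Hochberg). Among the genes tested, fit ranked at 175 by mean RPKM on ND, at 391 on HSD and at 594 on HFD. Of its exon bases, 6.03% are shared with asRNA:CR45046, at 0.0247 to 0.0681 RPKM per diet, and 12.6% with CG31465 on the other strand, listed at 0 in all libraries.

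CCHa2 encodes the peptide hormone CCHamide-2, which is released from fat body and gut on feeding and promotes the release of insulin-like peptides. The gene (FBgn0038147) lies on the minus strand of chromosome 3R from 13389059 to 13395197, with 3 transcripts that cover 1459 exon bases, and shares no exon base with another gene. On ND it was expressed at 71.5 (library A), 75.4 (B) and 73.2 RPKM (C). The HSD values were 37.8, 28.8 and 35.0 RPKM and the HFD values 20.3, 32.2 and 36.8 RPKM. The ND libraries were close together, and every library of the rich diets was below all of them, while HSD and HFD overlapped. The highest HFD value, 36.8 RPKM in library C, came with the highest HFD value of fit, and the lowest, in library A, did not come with the lowest of fit.

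By its log2FC of -1.11 (standard error 0.19; limma, Benjamini-Hochberg adjusted p = 0.0154), CCHa2 on HSD stood at 46.3% of its ND level. On HFD its log2FC was -1.33 (standard error 0.19; limma, Benjamini-Hochberg adjusted p = 0.0122), or 39.8% of ND. The exact permutation p was 0.1 for each diet. Of all genes tested, 29.2% on HSD and 23.3% on HFD likewise had libraries that did not overlap those of ND. For CCHa2, HSD exceeded HFD by 0.22 on the log2 scale (95% interval -0.22 to 0.66, limma, Benjamini-Hochberg adjusted p = 0.524). CCHa2 was supported by 7585 to 8440 rebuilt reads per ND library and by 1872 to 4874 per library of the rich diets. Its call on HSD was lost without ND library A (log2FC -1.13), ND library C (-1.12) or HSD library B (-1.0015), the same libraries whose absence ended the call of fit. In these fits the genes called on HSD over all genes fell from 276 to 128, 106 and 107. On HFD the call of CCHa2 was lost without ND library C (log2FC -1.33, limma, Benjamini-Hochberg adjusted p = 0.064), where calls over all genes fell from 160 to 44. The ratio of fit to CCHa2, each in RPKM, was 6.38 to 9.58 in ND libraries, 3.68 to 6.92 on HSD and 2.56 to 5.41 on HFD, so the HFD libraries did not overlap the ND libraries in this ratio while the HSD libraries did. The share of other gene pairs whose ratios do not overlap was not examined.

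CCHa2-R, the receptor of CCHa2, was expressed at 0.109 to 0.300 RPKM over the 9 libraries and lay below the limit for testing. The related receptor CCHa1-R, at a mean of 1.56 RPKM, was the only tested gene of this group of 3 and was not called.

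Some markers of other tissues were lower on the rich diets, as fit and CCHa2 were, and others were not. Of the 12 fat body genes looked up, 10 were tested, and 4 were called lower on HSD and the same number on HFD. These were the larval serum protein gene Lsp2 and the yolk protein genes Yp1, Yp2 and Yp3, which in adult females are made in fat body and ovarian follicle cells. The summed level of the 12 genes was 63558 to 91201 RPKM on ND, 37258 to 45078 on HSD and 22139 to 25656 on HFD, and the yolk protein genes made up most of it. Without Lsp1beta, Lsp2 and the yolk protein genes, the other 7 fat body genes, among them FASN1, apolpp, Lsd-1 and AkhR, summed to 1816 to 2045 RPKM on ND, 1576 to 2005 on HSD and 1277 to 1625 on HFD. All 4 genes called against ND are among those left out, so the lack of a call in the rest follows from this choice. Of the 5 tested of these 7 genes, 2 were at an unadjusted p under 0.05 by limma on each diet. One of them, Lpin, passed the adjusted p on HSD without reaching the fold threshold (log2FC -0.43, limma, Benjamini-Hochberg adjusted p = 0.0413). Another, apolpp, passed the fold threshold on HFD but not the adjusted p (log2FC -0.67, limma, Benjamini-Hochberg adjusted p = 0.0521). No marker was at 0 throughout a diet, but Fbp1 and Fbp2 were below 0.5 RPKM in all 3 diets. Eggshell and follicle genes summed to 34.8, 114 and 892 RPKM in ND libraries A to C, to 2.36 to 59.7 on HSD and to 2.54 to 6.49 on HFD, and Cp15 was called lower on HFD. ND library C, with the highest eggshell level, held 494 RPKM of fit, close to ND library B, while ND library A held the most fit and the least eggshell RNA of the ND libraries. ND library A also held the most Lsp2, at 947 RPKM against 327 and 347, and the highest yolk protein sum, at 88182 RPKM against 61406 and 67435. On HSD, library C was highest in fit, Lsp2 and eggshell genes and lowest in the yolk protein sum. On HFD, library C was highest in fit, Lsp2 and the yolk protein sum, and library A in eggshell genes. Over the 9 libraries hemocyte genes summed to 924 to 1386 RPKM and pericardial nephrocyte genes to 337 to 557, and limma called 0 of either list in any comparison, while at an unadjusted p under 0.05 against ND there were 2 of each list on HSD and 4 hemocyte genes on HFD. The median log2FC of the 7 nephrocyte genes tested was -0.27 on HSD and -0.0012 on HFD. Among them Amnionless passed the fold threshold on HSD but not the adjusted p (log2FC -0.76, limma, Benjamini-Hochberg adjusted p = 0.0547). The hemocyte gene eater passed the adjusted p on HFD below the fold threshold (log2FC -0.49, limma, Benjamini-Hochberg adjusted p = 0.037), and so did the tracheal gene Gasp on HSD (log2FC 0.50, adjusted p = 0.0253). Lpin, eater, Gasp, the HSD result of Amnionless and the results of apolpp and FASN3 on HFD against ND were named after their values were seen. Oenocyte genes, led by Cyp4g1, summed to 35552 to 50312 RPKM on ND, to 52021 to 63347 for HSD and to 44804 to 55842 for HFD, and Desat2 was called higher in HSD than in ND. Cyp4g1 made up most of these sums. Against ND the median log2FC of the 6 oenocyte genes was 0.39 on HSD and -0.16 on HFD. At an unadjusted p under 0.05 by limma were 4 of them on HSD and 1 on HFD, FASN3, which was lower (log2FC -0.94). Between HSD and HFD, 3 of the 6 oenocyte genes were called higher on HSD, eloF (log2FC 0.84), FASN3 (1.12) and Desat2 (0.86), where 1.75% of all genes tested were called higher on HSD. Gut genes summed to 7.05 to 11.4 RPKM in ND, 2.70 to 5.35 in HSD and 10.4 to 16.6 in HFD libraries, with Amy-p, an amylase gene, called lower in HSD. Neuron genes, at no more than 5.88 RPKM in sum, and tracheal genes, at no more than 4.59, had no call by limma, with 0 neuron genes and 1 tracheal gene at an unadjusted p under 0.05. The part of these tissues in the levels of fit and CCHa2 was not tested.

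**Figure D2:**
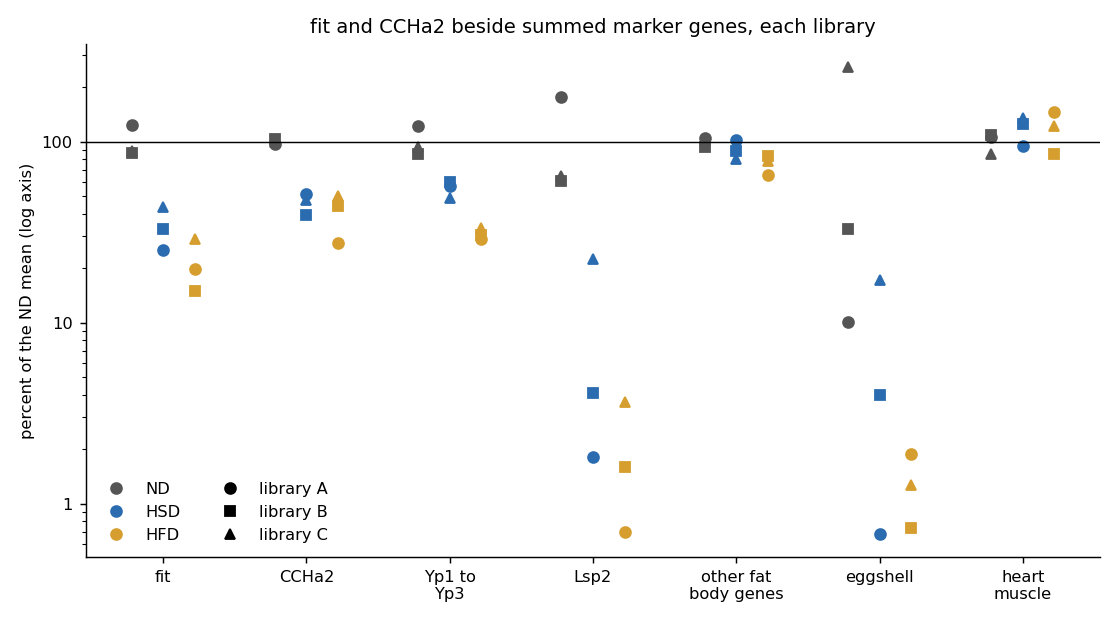
Level in each library as a percent of the ND mean (y axis, log scale) for fit, CCHa2, summed Yp1 to Yp3, Lsp2, 7 other fat body genes, 7 eggshell genes and 8 heart muscle genes; colours are diets and symbols are libraries. The fit points lie at 25.1% to 43.8% on HSD and 14.9% to 28.8% on HFD, and the 7 other fat body genes at 80.6% to 103% and 65.4% to 83.2%. These 7 leave out the 4 fat body genes called against ND.

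Nplp2 is annotated as a neuropeptide-like precursor, and its product has been described as a small lipid-binding protein of the hemolymph. The gene (FBgn0287423) lies on the plus strand of chromosome 3L from 13356376 to 13357223, has 610 exon bases and shares none with another gene. It was the highest of the 9 genes in every library, and by mean RPKM the gene at rank 5 of all genes tested on each diet. On ND it was expressed at 10732, 7678 and 9259 RPKM in libraries A, B and C. The HSD values were 12134, 9086 and 8004 RPKM, and the HFD values were 5727, 5435 and 5190.3 RPKM. HSD and ND libraries overlapped, whereas each HFD library was below every library of the other diets and the HFD libraries differed little among themselves.

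Nplp2 averaged 9223 ± 1527 RPKM in ND hearts, 9741 ± 2141 in HSD hearts and 5451 ± 269 in HFD hearts (mean ± SD, n = 3). The log2FC between HSD and HFD was 0.82 (standard error 0.19, limma, Benjamini-Hochberg adjusted p = 0.0304), with a permutation p of 0.1 (exact, two-sided). Libraries of these diets did not overlap for 29.9% of all genes tested. Against ND, the log2FC on HFD was -0.75 (95% interval -1.17 to -0.32) and missed the threshold (limma, Benjamini-Hochberg adjusted p = 0.0733), and on HSD it was 0.07 (95% interval -0.36 to 0.50). The contrast between the rich diets passed in 4 of the 9 leave-one-out fits, at 0.65 to 0.95. It was lost without ND library C (log2FC 0.82), HSD library B (0.86) or HFD libraries A (0.85), B (0.82) or C (0.78), with an adjusted p of at most 0.0855 (limma, Benjamini-Hochberg). It was also lost with quantile normalization (log2FC 0.16), with no expression limit and with only the 6 libraries compared. Without HSD library A the log2FC of HFD against ND was -0.75 and passed the threshold (limma, Benjamini-Hochberg adjusted p = 0.0352).

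Other lipid carriers gave a mixed picture between the rich diets. Of 8 tested genes for lipid carriers, their receptors and the Nplp family, limma called 0 against ND, with 3 at an unadjusted p under 0.05 on HSD and 4 on HFD. Between HSD and HFD, apolpp, the precursor of the major lipoprotein, was called higher on HSD, at 755 ± 97.3 against 497 ± 98.9 RPKM (SD, n = 3). The lipophorin receptor gene LpR2 was called lower on HSD, at 170 ± 18.3 against 278 ± 65.6 RPKM (SD, n = 3). The log2FC was 0.61 for apolpp (adjusted p = 0.0369) and -0.68 for LpR2 (adjusted p = 0.0408, each by limma with Benjamini-Hochberg correction). Each was called in 1 of the 9 fits that left out a library, with log2FC of 0.48 to 0.76 for apolpp and -0.89 to -0.57 for LpR2. Both calls were lost with no expression limit and with only the 6 libraries compared, and that of apolpp also with RPKM as deposited and with quantile normalization (limma, Benjamini-Hochberg adjusted p from 0.0551 to 0.091).

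The gene daw encodes an Activin ligand of the TGF-beta family, which in larvae is known as a signal that responds to dietary sugar. It (FBgn0031461) lies on the plus strand of chromosome 2L from 2805261 to 2812376, with 3265 exon bases in 3 transcripts. Its values were read from the row listed as Dpm1, which gives whole reads at the exon length of daw in all 9 libraries, because labels and values are out of register there. On ND daw was expressed at 23.4, 16.4 and 17.8 RPKM in libraries A, B and C. On HSD the values were 33.6, 29.8 and 22.3 RPKM, and on HFD they were 27.8, 16.3 and 14.6 RPKM. The HSD libraries tended to the top of the range, but HSD library C was below ND library A and HFD library A lay among the HSD values.

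The log2FC of daw was 0.56 on HSD (95% interval -0.0001 to 1.12) and -0.02 on HFD (95% interval -0.57 to 0.54), and neither was called (limma, Benjamini-Hochberg adjusted p = 0.242 and 0.981). HSD was above HFD by 0.57 (95% interval 0.02 to 1.13, limma, Benjamini-Hochberg adjusted p = 0.184). This difference was called in 1 fit, without HFD library A, where the log2FC was 0.85 (limma, Benjamini-Hochberg adjusted p = 0.0492). Its receptors were expressed evenly, with babo at 14.0 to 16.9 RPKM and put at 10.4 to 12.5 RPKM over the 9 libraries. Of the 9 Activin pathway genes tested, 0 were called by limma in any comparison, with 0 at an unadjusted p under 0.05 against ND and 1 between the rich diets. Their log2FC spanned -0.17 to 0.17 for HSD and -0.29 to 0.09 for HFD. The pathway gene with the highest mean RPKM was myo, another Activin-like ligand, at 23.3 RPKM.

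The cytokine genes upd2 and upd3 encode ligands of the JAK/STAT pathway. The product of upd2 is released from fat body in fed flies and acts on brain neurons much as leptin does in mammals, and upd3 is induced in hemocytes and gut by damage and lipid-rich food. Both genes lie on chromosome X, upd2 from 18240654 to 18243284 and upd3 from 18277233 to 18284596, with 33948 bases between them. They were the lowest of the 9 genes on every diet. Expression of upd2 was 0.181, 0.323 and 0.175 RPKM in the ND libraries (A, B, C in turn), 0.446, 0.219 and 0.199 RPKM on HSD and 0.639, 0.647 and 0.266 RPKM on HFD. HFD libraries A and B and HSD library A were above every ND library, whereas HFD library C was within the ND range.

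These upd2 values rest on 26 to 49 rebuilt reads per ND library, 28 to 78 on HSD and 41 to 82 on HFD, with mates counted separately, so the counting error is large. The mean on HFD was 2.29 times that on ND, with an exact permutation p of 0.2 (two-sided). With no expression limit, the log2FC of upd2 on HFD was 0.47 (standard error 0.19, limma, Benjamini-Hochberg adjusted p = 0.318), and the difference was not detectable at this depth and spread. On HSD the same fit gave 0.11.

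Expression of upd3 was 0.737, 0.733 and 0.916 RPKM in the ND libraries (A, B, C in turn), 1.32, 0.774 and 0.596 RPKM on HSD and 1.55, 1.29 and 0.629 RPKM on HFD. The same 3 libraries as for upd2, HSD A, HFD A and HFD B, held the highest upd3 values, and HFD library C was below all ND libraries. The log2FC of upd3 was 0.08 on HSD (95% interval -0.49 to 0.64) and 0.31 on HFD (95% interval -0.25 to 0.88), and neither was called (limma, Benjamini-Hochberg adjusted p = 0.916 and 0.551). The ratio of upd3 to upd2 was 2.27 to 5.25 on ND, 2.95 to 3.54 on HSD and 2.00 to 2.42 on HFD.

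The receptor gene dome had means of 8.95 ± 0.533 (ND), 8.57 ± 0.926 (HSD) and 11.1 ± 1.11 RPKM (HFD; SD, n = 3) and was not called. The ligand gene upd1 was listed at 0 in 4 of the 9 libraries. Of the 9 JAK/STAT genes tested, limma called 0, with 1 at an unadjusted p under 0.05 on HSD and 3 on HFD. Stat92E, the transcription factor of the pathway and its most expressed gene, passed the adjusted p on both diets but not the 1.5-fold threshold. Its levels were 114, 102 and 103 RPKM in the ND libraries (A, B, C in turn), 76.0, 73.2 and 77.5 RPKM on HSD and 82.1, 74.1 and 73.3 RPKM on HFD, with no overlap between ND and either rich diet. The same lack of overlap with ND was seen for 29.2% of all genes tested on HSD and 23.3% on HFD. The log2FC of Stat92E was -0.49 on HSD (adjusted p = 0.00835) and -0.48 on HFD (adjusted p = 0.0156, each by limma with Benjamini-Hochberg correction). In fits without 1 library the adjusted p of Stat92E was at most 0.0496 on HSD and at most 0.0652 on HFD (limma, Benjamini-Hochberg). Its feedback target Socs36E had log2FC of 0.23 and 0.41, neither called.

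The gene egr encodes Eiger, the tumour necrosis factor of the fly, which is released from fat body and acts on the insulin-producing cells and, through JNK, in many tissues. It (FBgn0033483) lies on the plus strand of chromosome 2R from 10078366 to 10084210. Expression on ND was 75.4, 76.9 and 63.2 RPKM in libraries A, B and C, on HSD 52.5, 65.6 and 73.2 RPKM and on HFD 65.6, 58.6 and 62.1 RPKM. The diets overlapped, and ND library C was closer to the HFD libraries than to the other ND libraries. The log2FC was -0.18 on HSD (95% interval -0.46 to 0.11) and -0.20 on HFD (95% interval -0.49 to 0.08), so both intervals stayed within a 1.5-fold change, an absolute log2FC of 0.585. Of its receptors, wgn was expressed at 17.4 to 30.7 RPKM and was not called, and grnd, at 0.305 to 0.685 RPKM, lay below the limit for testing on average. Of the 11 TNF and JNK genes tested, limma called 0, with 2 at an unadjusted p under 0.05 on each rich diet, and Jra, the most expressed, had log2FC of 0.25 and 0.32.

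Gbp1 and Gbp2 encode growth-blocking peptides, which are secreted from the larval fat body in response to amino acids. They lie side by side on the plus strand of chromosome 2R, Gbp1 from 17136451 to 17136903 and Gbp2 from 17137240 to 17139595, with 336 bases between them. CG43103, which lies opposite to Gbp2, shares 6.41% of the Gbp2 exon bases. Expression of Gbp1 was 121, 88.6 and 92.2 RPKM in the ND libraries (A, B, C in turn), 100.4, 80.7 and 66.5 RPKM on HSD and 94.7, 90.8 and 82.4 RPKM on HFD. Expression of Gbp2 was 252, 179 and 200.3 RPKM on ND, 209, 169 and 135 RPKM on HSD and 215, 226 and 180 RPKM on HFD. For both genes ND library A was the highest ND library and HSD library C the lowest of all 9, and all diets overlapped.

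No difference between diets was called for Gbp1 or Gbp2. The log2FC on HSD was -0.29 for Gbp1 (95% interval -0.66 to 0.08) and -0.31 for Gbp2 (95% interval -0.71 to 0.10). On HFD it was -0.16 for Gbp1 (95% interval -0.53 to 0.21) and -0.01 for Gbp2 (95% interval -0.42 to 0.39), both within a 1.5-fold change. The ratio of Gbp2 to Gbp1 varied little, between 2.01 and 2.17 in ND libraries, 2.02 and 2.09 in HSD libraries and 2.18 and 2.49 in HFD libraries. Each HFD library was above every ND and HSD library, but narrowly so for library C, at 2.180 on HFD against 2.174 on ND. How often the ratios of other gene pairs part in this way was not examined. Their receptor mthl10 had means of 14.9 ± 0.571 (ND), 13.4 ± 1.37 (HSD) and 12.2 ± 1.64 RPKM (HFD; SD, n = 3). Of 6 genes of this pathway tested, limma called 0, with 2 at an unadjusted p under 0.05 on HSD and 1 on HFD, and Gbp3, a related peptide gene on chromosome 3R, was at 112 ± 14.8, 80.3 ± 19.9 and 100.1 ± 19.5 RPKM on the 3 diets (SD, n = 3 each).

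**Figure D3:**
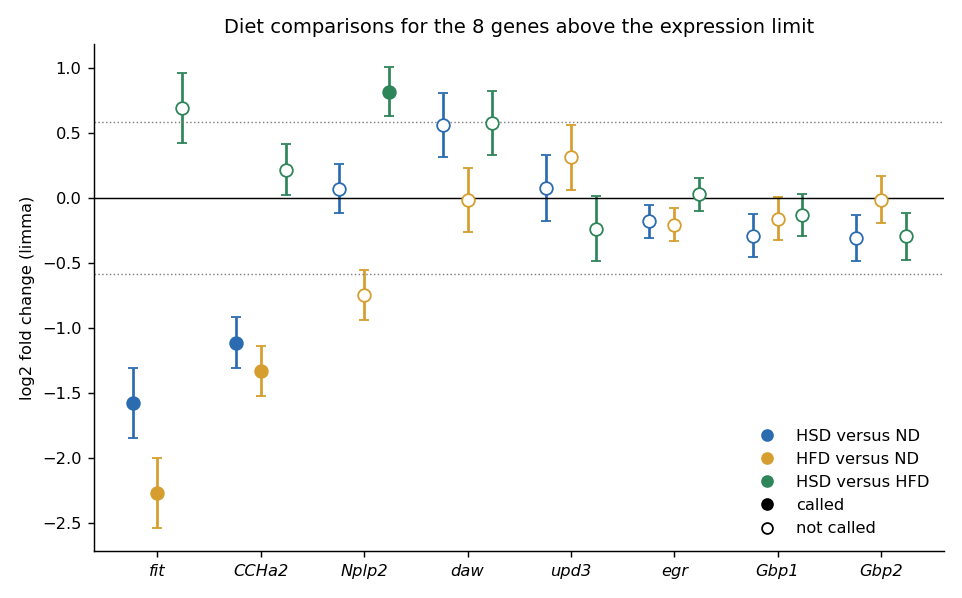
log2 fold change (y axis) with its standard error for the 8 genes tested (x axis) for each rich diet against ND and for HSD against HFD; filled points were called and dotted lines mark a 1.5-fold change. The filled points are fit and CCHa2 against ND, from -2.27 to -1.11, and Nplp2 between HSD and HFD, at 0.82.

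In order of mean level the ND hearts held Nplp2, fit, Gbp2, Gbp1, CCHa2, egr, daw, upd3 and upd2. Among neighbours in this order, CCHa2 and egr alone overlapped in their ND libraries. On HSD the overlapping neighbours were fit with Gbp2, Gbp1 with egr, and CCHa2 with daw. On HFD, fit stood below Gbp2, at 117 against 207 RPKM, with every library of fit below every library of Gbp2, and it overlapped Gbp1, as CCHa2 overlapped daw and upd3 overlapped upd2. By RPKM, which corrects for gene length, Nplp2 was 15.7 to 18.8 times as high as fit in ND libraries, 33.0 to 87.2 times on HSD and 32.5 to 65.8 times on HFD.

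Among all genes tested, those whose log2 levels followed a gene most closely over the 9 libraries were found by Pearson's r, given as a description because the libraries share their diets. For fit these were Gnmt, the glycine N-methyltransferase gene (r = 0.987), Cyp4d8 (r = 0.983) and Lsp2 (r = 0.969). For CCHa2 they were Rab39 (r = 0.968), Agpat2, a gene of glycerolipid synthesis (r = 0.948), and CG8157 (r = 0.948). For Nplp2 they were CG43093 (r = 0.983), CG1299 (r = 0.980) and CG6805 (r = 0.976). Gbp2 was closest to teq (r = 0.987), CG33307 and sPLA2, and Gbp1 to Idgf6 (r = 0.963), CG14990 and Hf. The gene egr was closest to Tg (r = 0.965), Mdr49 and the laminin gene LanB1, daw to ics (r = 0.913), ArgRS and hook, and upd3 to Sac1 (r = 0.935), CG6686 and CG10339. Of these most similar genes, Gnmt, Lsp2 and Agpat2 were themselves called lower on HSD and on HFD against ND. CG8157 and CG43093 were called lower on HFD against ND, and CG43093 also higher on HSD than on HFD. The rest were not called in any comparison.

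Beyond the 9 genes, 13 other secreted signals were tested. ImpL2, which binds insulin-like peptides and limits insulin signalling, was the only one called against ND, and it was higher on both diets. Its levels were 125, 117 and 125 RPKM in the ND libraries (A, B, C in turn), 268, 290 and 256 RPKM on HSD and 250.4, 209 and 161 RPKM on HFD, so every library of the rich diets was above all ND libraries. A lack of overlap with ND, in either direction, was seen for 29.2% of all genes tested on HSD and 23.3% on HFD. The log2FC of ImpL2 was 1.14 on HSD (standard error 0.14, adjusted p = 0.0041) and 0.73 on HFD (standard error 0.14, adjusted p = 0.0345, each by limma with Benjamini-Hochberg correction). It was called in all 9 fits without 1 library on HSD, and in 3 of 9 on HFD, where its log2FC was between 0.58 and 0.90. The HFD call was also lost with no expression limit (limma, Benjamini-Hochberg adjusted p = 0.0673) and with only the 6 libraries compared (0.0714). The insulin-suppressing peptide gene Lst was lower on HSD than on HFD, with a log2FC of -0.89 (limma, Benjamini-Hochberg adjusted p = 0.0311), in 5 of 9 such fits, and was not called with no expression limit (0.0611) or with only the 6 libraries compared (0.0623). Among the 6 insulin pathway genes tested, InR, the insulin receptor gene, was lower on HSD than on HFD (log2FC -0.59, limma, Benjamini-Hochberg adjusted p = 0.0222, called in 5 of 9 such fits), and was under the fold threshold with quantile normalization (-0.58) and with a pseudocount of 1 (-0.55). Against ND limma called 0 of the 6, with 1 at an unadjusted p under 0.05 on HSD and 3 on HFD. NimB5, a secreted factor of the fat body that acts on hemocytes, was named after its values were seen. It passed the adjusted p on both diets without reaching the fold threshold, with log2FC of -0.42 and -0.32 (limma, Benjamini-Hochberg adjusted p = 0.0131 and 0.046).

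**Figure D4:**
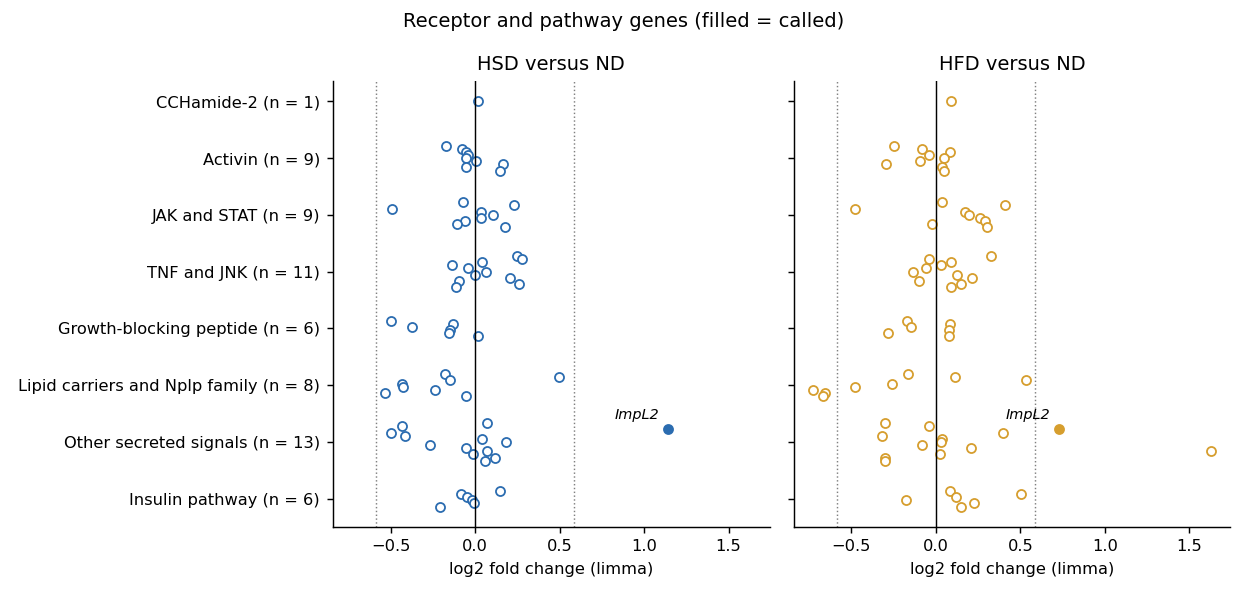
log2 fold change against ND (x axis) of the tested receptor and pathway genes, 1 point per gene, by group (rows, with the number tested), on HSD (left) and HFD (right); filled points were called and dotted lines mark a 1.5-fold change. The only filled point is ImpL2, at 1.14 on HSD and 0.73 on HFD.

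**Figure D5:**
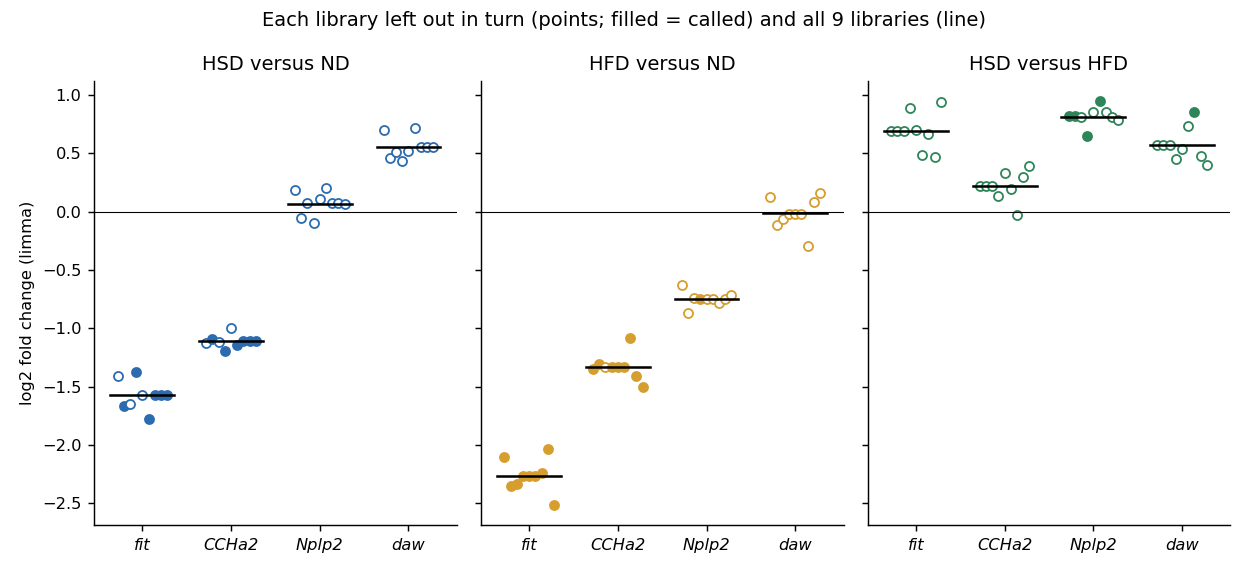
log2 fold change (y axis) of fit, CCHa2, Nplp2 and daw in fits that each left out 1 of the 9 libraries (points, filled where called), with the value from all 9 libraries as a line. The fit points for HFD are all filled, from -2.51 to -2.04, while 6 of 9 are filled for fit and for CCHa2 on HSD and 4 of 9 for Nplp2 between HSD and HFD.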

How the data were processed

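Hearts of w1118 females on 3 diets were sequenced, with 3 libraries each. Per the labels and the study's methods, libraries were made with a stranded total RNA kit after ribosomal depletion, and the authors trimmed the reads, aligned them to dm3 with Subread 1.6.1, counted them with featureCounts 1.6.1 and updated identifiers to dm6. The strand setting of the counting is not given in the sources used here. The authors deposited 1 table of RPKM, whose unit is recorded as other because 28.4% of the deposited values use a decimal comma. Commas were read as points.

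Labels and values are shifted against each other in several stretches of rows, where labels were moved by a fixed offset. Of 2316 rows above 0 there, 10.9% gave whole reads (within 0.01 read) at the exon length of the gene listed and 95.4% at that of the realigned gene. Reads were rebuilt as RPKM times exon length and library total. Lengths and positions are those of BDGP6 (Ensembl annotation), a later assembly than the one aligned to.

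RPKM were scaled by the median of ratios. Genes averaging 0.5 RPKM or more, 8365 in all, entered 1 limma 3.58.1 fit (R 4.3.3) of log2(RPKM + 0.5) over all 9 libraries, with no covariate and a trend in the variance prior (6 residual and 2.9 prior degrees of freedom). Fold changes are thus on the log2(RPKM + 0.5) scale, which understates those of low genes. Single genes were also compared by the two-sided exact permutation test. The fit was also run on simulated reads, with the same dispersion for all genes and any changes placed only in HSD. These do not hold the spread between the real libraries, and no result given here rests on them. Tables and figures used matplotlib 3.10.9, scipy 1.17.1 and pandas 2.3.3 in Python 3.11.15.

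The genes named are the 9 members, their receptors, every called gene of the pathway lists or else its most expressed gene, the 3 most similar genes of each member by r, and the leading or called markers. Members and lists were chosen with earlier results of these data known. All 134 list symbols were found. There were 21 alternatives: quantile normalization, unscaled deposited RPKM, a pseudocount of 0.1 or of 1, no expression limit, a limit of 2 RPKM, no variance trend, only the 6 libraries compared, the replicate block, limma-voom on rebuilt reads, no fold threshold, labels as listed, and each library left out. They were extended to 6 pathway genes after the data were seen. Promoter motifs were not analysed here.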

Additional observations from a re-analysis of the deposited data

Results flagged for a closer look

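Nplp2 was called between the rich diets, which differed in length of feeding as well as in kind. Against ND its log2FC was 0.07 on HSD and -0.75 on HFD, and neither was called (limma, Benjamini-Hochberg adjusted p = 0.898 and 0.0733). The difference between HSD and HFD, tested as a contrast in the same limma fit, was 0.82 (adjusted p = 0.0304 with Benjamini-Hochberg adjustment). All 3 HSD libraries were above all 3 HFD libraries, and libraries of these diets did not overlap for 29.9% of all genes tested. The contrast was called in 4 of the 9 fits that left out a library. It was lost with quantile normalization, with no expression limit and with only the 6 libraries compared. Nplp2 was 1 of 364 genes called between these diets. Fat body marker genes also differed between HSD and HFD, with 4 of the 10 tested called higher on HSD, and so did oenocyte genes, with 3 of the 6 tested called higher on HSD. Of all genes tested, 1.75% were called higher on HSD. The fat body genes called were apolpp, Lsp1beta, Yp2 and Yp3, and yolk protein genes are also made in follicle cells. The median log2FC between HSD and HFD was 0.62 for the fat body list and 0.64 for the oenocyte list, against -0.01 over all genes tested. The part of these tissues in the Nplp2 difference was not tested. Groups of 3 libraries were not examined for outlying libraries.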

How the results depend on the processing

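Leaving out each library, the number of the 9 genes called ranged from 0 to 2 for HSD versus ND, from 1 to 3 for HFD versus ND and from 0 to 1 for HSD versus HFD. None was called on HSD without ND library A, ND library C or HSD library B, and only fit on HFD without ND library C. Between HSD and HFD the count was 0 with quantile normalization, with no expression limit and with only the 6 libraries compared. Without HFD library A it was 1, but daw in place of Nplp2. Over all genes, 276 were called on HSD with all libraries. Without ND library A, ND library C and HSD library B in turn, 128, 106 and 107 were called. On HFD, 160 were called with all libraries, 44 without ND library C and 61 without HFD library B, where fit and CCHa2 stayed called. The cause of the losses among the 9 genes was not tested. In the remaining alternatives fit and CCHa2 were called in each comparison with ND. Changes of sign were seen among values that were not called. With RPKM as deposited, where the median log2FC of all genes on HFD was 0.12 against 0.02, the log2FC on HFD was 0.0933 for daw and 0.0985 for Gbp2, and egr was -0.0429 between HSD and HFD. With quantile normalization the log2FC on HFD was 0.0298 for Gbp2 and 0.00 for Nplp2, which this method forces to nearly the same value in all libraries because Nplp2 holds rank 4 or 5 in each. With labels as listed, the row named daw gave -0.0301 on HSD. Leaving out 1 library gave ranges of -0.10 to 0.20 for Nplp2 and -0.13 to 0.23 for upd3 on HSD, -0.29 to 0.16 for daw and -0.12 to 0.12 for Gbp2 on HFD, and -0.0309 to 0.39 for CCHa2, -0.0782 to 0.16 for egr and -0.28 to 0.0152 for Gbp1 between HSD and HFD.

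Library letters are shared by the diets, and the study's methods describe separate collection days but do not tie them to letters. Same-letter libraries did not all deviate together: 4 of 9 such pairs had an r of deviations over 0.1 (range -0.25 to 0.27), against 4 of 18 pairs of different letters. With the letter as a replicate block, 2, 3 and 1 of the genes were called in the 3 comparisons, and the added gene was Nplp2 on HFD (log2FC -0.75, limma, Benjamini-Hochberg adjusted p = 0.0483). No other call among the 9 genes changed, but daw, higher on HSD than on ND and HFD within each letter, passed the adjusted p without reaching the fold threshold (0.0477 against ND and 0.0381 against HFD, limma, Benjamini-Hochberg). Calls over all genes on HFD were 121 lower and 39 higher, and 96 lower and 87 higher with RPKM as deposited. Depth limits upd2, at 26 to 82 reads per library.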
